A study of Mus musculus with 6 samples.

Results

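The 10 genes described here belong to the Notch pathway and the pre-T cell receptor (pre-TCR) of developing T cells: Notch1, Notch3, Hes1, Dtx1, Nrarp, Ptcra, Rbpj, Myc, Lfng and Cd27. They were taken by gene symbol from a table of 22298 genes, and all 10 were found once. RNA came from thymocytes that the labels call double-negative (DN), the precursors that carry neither CD4 nor CD8, sorted from thymi of C57BL/6 mice with no treatment. Toxf/fPdcd1Cre mice carry floxed Tox alleles with a Pdcd1Cre, a recombinase whose name refers to the PD-1 receptor gene, and Toxf/f mice carry the floxed alleles as well, without a Cre in their label. Each genotype had 3 samples, of which replicates 1 and 2 came from animals 3 weeks old and replicate 3 from animals 4 weeks old. For Toxf/f, replicates 1 and 2 held the same value for every gene, under the same column header WT-2, and were used as 1 library, which leaves 3 Toxf/fPdcd1Cre against 2 Toxf/f libraries. Whether samples came from different animals, or from pools, is not in the labels, so the p-values measure the spread between these libraries, which may be technical.

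When a Notch receptor binds a Delta-like or Jagged ligand on a neighbouring cell, proteases free its intracellular part, which enters the nucleus and joins the DNA-binding protein RBPJ to switch on target genes. In the thymus, Notch1 meets Dll4 on epithelial cells, a signal that commits precursors to the T lineage and carries them to the checkpoint called beta-selection. There a rearranged T cell receptor beta chain pairs with the invariant chain encoded by Ptcra to form the pre-TCR, whose signal drives proliferation and the passage to the CD4 CD8 double-positive stage.

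The libraries held 14245492 to 16199195 estimated counts. Tox, the targeted gene, was at 4.98, 4.01 and 3.34 FPKM in Toxf/fPdcd1Cre replicates 1, 2 and 3, against 31.1 and 27.5 FPKM in the Toxf/f libraries, a log2 fold change of -2.78 ± 0.161 (SE; adjusted p = 6.72e-06, edgeR). Pdcd1, after which the Cre is named, had 0 counts in all 3 Toxf/fPdcd1Cre libraries and in Toxf/f replicate 3, and 19 in the other Toxf/f library. Toxf/fPdcd1Cre replicate 1 stood apart with 1 count of the chromosome Y gene Ddx3y, where the other 4 libraries held 843 to 1354. The DN label did not match the coreceptor genes: Cd8b1, Cd8a and Cd4 ranked 93, 129 and 226 among 22298 genes by mean FPKM, while Il2ra, Cd44 and Kit, which mark early DN stages, ranked 3511, 6537 and 9806. Ccl25 of thymic epithelium ranked 110. Values below are therefore those of libraries labelled DN, and in such bulk RNA fewer cells of a type and less RNA per cell cannot be told apart.

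Of the 10 genes, 1 changed between genotypes. Lfng, which encodes a Fringe glycosyltransferase that adds sugar to Notch receptors and favours their response to Delta-like ligands, was lower in Toxf/fPdcd1Cre libraries, at about 0.504 times its Toxf/f level. None of the 10 was called higher. Notch3, the second main Notch receptor of thymocytes, and Ptcra were higher at an unadjusted p under 0.05 but did not pass the adjusted test. All 10 passed the filter on low counts and were tested with edgeR's quasi-likelihood test, adjusted by the Benjamini-Hochberg method over 14121 genes, of which 232 changed (1.64%), 213 lower (1.51%) and 19 higher (0.135%). At an unadjusted p under 0.05 the 10 genes gave 2 higher and 1 lower, against 10.3% of all tested genes, 3.08% higher and 7.26% lower. Library values in CPM (counts scaled to library size) did not overlap between genotypes for 3 of the 10 and for 26.2% of all tested genes. The median log2 fold change of the 10 was 0.038, and that of all tested genes 0.025.

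**Figure D1:**
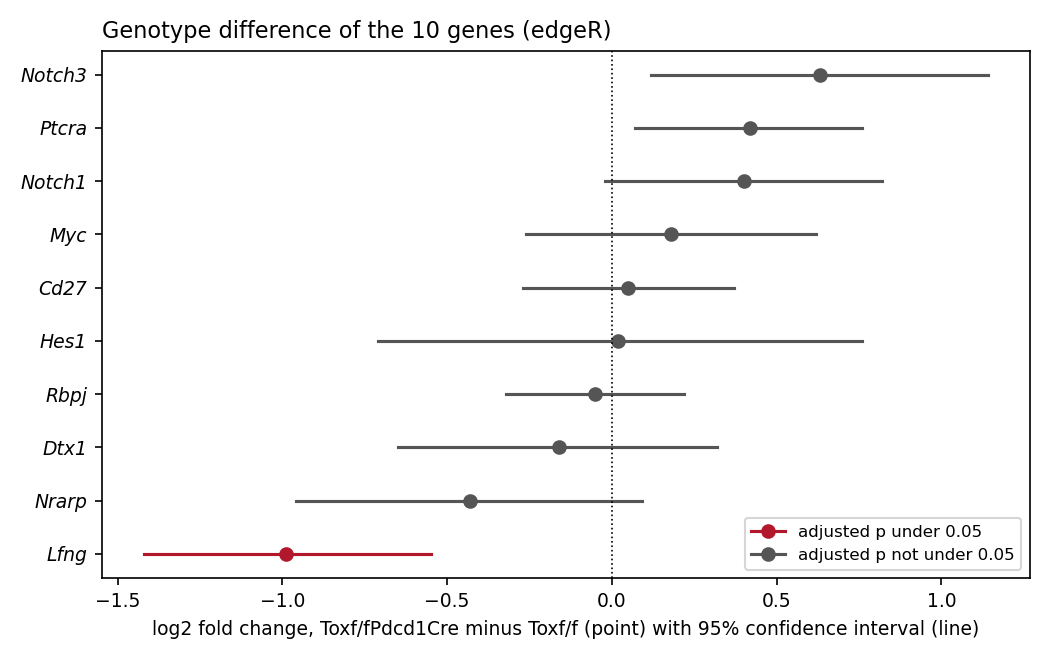
Each row is a gene; the point is its log2 fold change, Toxf/fPdcd1Cre minus Toxf/f (3 and 2 libraries), and the line its 95% confidence interval from edgeR. Lfng, at -0.99, passed the adjusted test, while the intervals of Notch3 and Ptcra lie above 0 without an adjusted p under 0.05.

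RefSeq start-site windows (GRCm38.p6, 250 bases before to 50 after the start) were found for 8 of the 10 genes; Hes1 and Myc had none. Those of Lfng and Ptcra are shown, because they are the called gene and the defining gene of the pre-TCR, and because together they hold most of the motif matches found. Capitals mark the RBPJ core TGGGAA on either strand (TTCCCA on the other strand), its longer form CGTGGGAA, and the E-box CAGCTG, a palindrome known as a target of E proteins, which regulate Ptcra. Each is printed along the strand of its gene.
Lfng, chr5:140607091-140607390, plus strand: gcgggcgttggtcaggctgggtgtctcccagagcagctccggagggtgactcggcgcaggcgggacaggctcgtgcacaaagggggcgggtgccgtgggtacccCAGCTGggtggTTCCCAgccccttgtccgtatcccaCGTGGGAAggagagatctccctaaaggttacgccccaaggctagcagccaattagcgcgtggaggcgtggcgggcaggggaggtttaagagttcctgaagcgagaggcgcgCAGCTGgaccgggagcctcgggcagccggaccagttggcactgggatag
Ptcra, chr17:46763663-46763962, minus strand: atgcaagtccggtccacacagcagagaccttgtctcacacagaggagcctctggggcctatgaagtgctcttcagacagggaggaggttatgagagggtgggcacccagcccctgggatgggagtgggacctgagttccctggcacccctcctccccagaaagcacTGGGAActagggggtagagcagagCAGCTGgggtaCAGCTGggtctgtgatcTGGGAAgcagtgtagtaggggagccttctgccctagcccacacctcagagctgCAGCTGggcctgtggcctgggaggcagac

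The longer form CGTGGGAA was found in the Lfng window alone among the 8 genes, at -110 to -103 from the start, and in 0.734% of all 32851 windows. It contains one of the core matches of Lfng and overlaps the E-box CACGTG at -112 to -107, a sequence that Myc and related factors bind and that 7.15% of windows hold. The core TGGGAA was found for 3 of the 8 genes (Lfng, Ptcra and Rbpj) and in 25.6% of windows. Ptcra had core matches at -84 to -79 and at -32 to -27. CAGCTG was found for 3 of the 8 genes (Lfng, Ptcra and Nrarp) and in 16.3% of windows, with 3 matches in Ptcra. These matches describe letters in the windows and are not evidence of binding.

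Levels of the 10 genes spread widely. Per unit of transcript length (FPKM, fragments scaled for transcript length and library size), Cd27 stood far above the rest with a mean of 169 FPKM over the 5 libraries, at percentile 97.2 of the tested genes. Myc (36.5), Notch1 (31.7), Ptcra (29.4) and Rbpj (21.5 FPKM) followed, then Notch3 (12.2), Lfng (12.1), Dtx1 (7.68), Nrarp (5.0) and Hes1 (3.87 FPKM), the last at percentile 33.5. The library ranges of neighbours in this order overlapped, except for Cd27 above Myc and Rbpj above Notch3. Myc exceeded Notch1 in 4 of 5 libraries, and Notch1 exceeded Ptcra in 3 of 5. Over all 5 libraries Rbpj was the steadiest, with its highest library 1.16 times its lowest. Lfng had the widest range at 3.27 times, from Toxf/fPdcd1Cre replicate 3 to Toxf/f replicate 3, which includes its difference between genotypes.

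**Figure D2:**
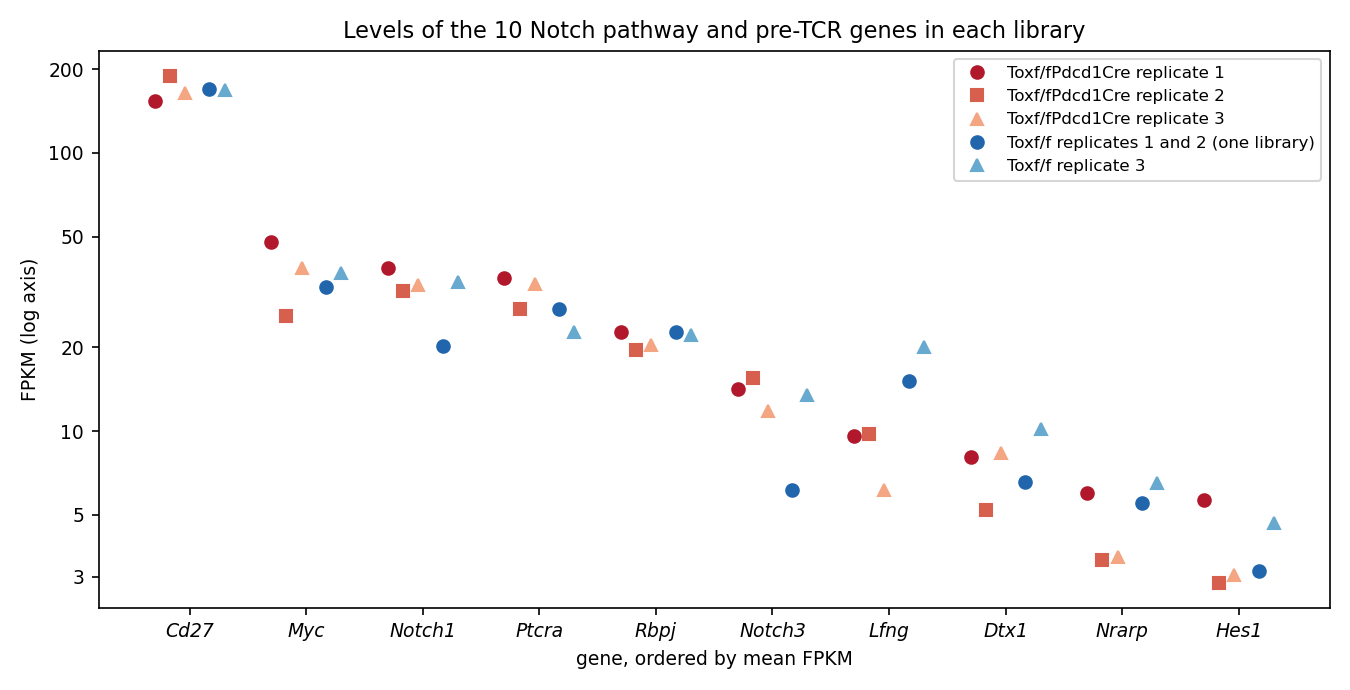
FPKM on a log axis for each of the 10 genes in the 3 Toxf/fPdcd1Cre libraries (reds) and the 2 Toxf/f libraries (blues), ordered by mean level. Lfng is the gene whose genotypes stand clearly apart, at 6.14 to 9.80 FPKM in Toxf/fPdcd1Cre and 15.1 to 20.1 FPKM in Toxf/f libraries.

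The receptor Notch1 (ENSMUSG00000026923, chromosome 2 from 26457903 to 26516663, minus strand, in GRCm38) was at 38.5, 32.0 and 33.5 FPKM in Toxf/fPdcd1Cre replicates 1, 2 and 3, against 20.2 FPKM in the Toxf/f library of replicates 1 and 2 and 34.2 FPKM in Toxf/f replicate 3. One Toxf/f library was thus low and the other lay among the Toxf/fPdcd1Cre values, so the genotypes overlapped. Its log2 fold change of 0.40 ± 0.192 (SE) did not pass (adjusted p = 0.508, edgeR). Notch3 (ENSMUSG00000038146, chromosome 17 from 32120820 to 32166852, minus strand) had the same low library, with 14.2, 15.6 and 11.9 FPKM in Toxf/fPdcd1Cre replicates 1, 2 and 3, against 6.13 and 13.5 FPKM in the Toxf/f libraries. Its genotypes did not overlap in CPM, where the lowest Toxf/fPdcd1Cre library had 97.1 and the highest Toxf/f library 94.3 CPM, but they overlapped in FPKM. Its log2 fold change was 0.63 ± 0.233 (adjusted p = 0.321, edgeR). Without the low Toxf/f library, the log2 fold change was 0.09 for Notch1 and 0.24 for Notch3, and without Toxf/f replicate 3 it was 0.80 and 1.19, with no adjusted p under 0.05 in either case.

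The shares of the receptor genes overlapped between genotypes. Notch1 made up 61.2% ± 3.32 of the summed FPKM of Notch1 to Notch4 in Toxf/fPdcd1Cre libraries and 60.5% ± 1.34 in Toxf/f libraries (SD, n = 3 and 2; exact permutation p = 0.9, two-sided). Notch3 made up 24.5% ± 3.04 in Toxf/fPdcd1Cre and 21.1% ± 3.46 in Toxf/f libraries (exact permutation p = 0.5). With 10 splits of 5 libraries this exact test cannot go below p = 0.1. Notch2 was at 7.37 ± 0.383 FPKM in Toxf/fPdcd1Cre and 7.34 ± 1.90 FPKM in Toxf/f libraries, and Notch4, known from endothelium, at 0.667 ± 0.110 and 0.750 ± 0.325 FPKM.

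**Figure D3:**
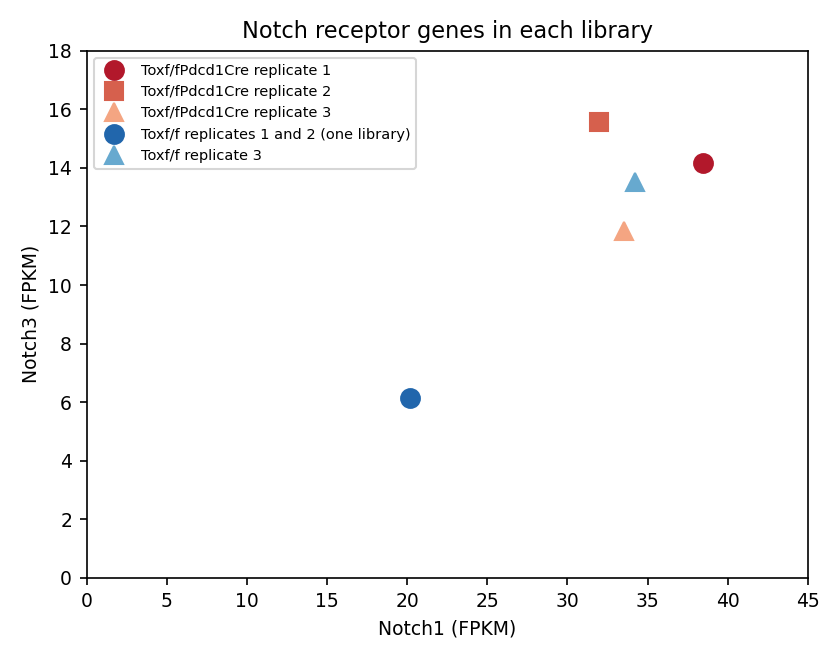
Notch3 against Notch1, both in FPKM, with 1 point per library. The Toxf/f library of replicates 1 and 2 lies apart at 20.2 and 6.13 FPKM, while Toxf/f replicate 3 lies among the 3 Toxf/fPdcd1Cre libraries.

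The ligand genes were low and none of the 4 tested passed in either direction (at an unadjusted p under 0.05 also 0). Jag2, the highest, averaged 6.95 FPKM in Toxf/fPdcd1Cre and 6.55 FPKM in Toxf/f libraries (log2 fold change 0.26 ± 0.220), and Dll4, the ligand of thymic epithelium, 3.96 and 3.82 FPKM (0.10 ± 0.233). Jag1 averaged 1.48 FPKM in Toxf/fPdcd1Cre and 1.95 FPKM in Toxf/f libraries. Dll3 did not pass the filter on low counts. Of the 9 genes of the proteases that cleave Notch, 0 passed in edgeR and 0 had an unadjusted p under 0.05. Psenen, a part of gamma-secretase, averaged 71.4 FPKM in Toxf/fPdcd1Cre and 77.0 FPKM in Toxf/f libraries, and Adam10, which makes the first cut, 42.5 FPKM in Toxf/fPdcd1Cre and 42.7 FPKM in Toxf/f libraries. Aph1b and Aph1c, further gamma-secretase genes, had the smallest p of the list, at log2 fold changes of -0.17 ± 0.282 and -0.26 ± 0.452.

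Lfng (ENSMUSG00000029570, chromosome 5 from 140607320 to 140615545, plus strand) was at 9.62, 9.80 and 6.14 FPKM in Toxf/fPdcd1Cre replicates 1, 2 and 3, against 15.1 FPKM in the Toxf/f library of replicates 1 and 2 and 20.1 FPKM in Toxf/f replicate 3. Every Toxf/fPdcd1Cre library lay below both Toxf/f libraries, and this was so among animals of 3 weeks and of 4 weeks. The counts were 316, 366 and 215 in Toxf/fPdcd1Cre and 537 and 742 in Toxf/f libraries. In CPM, Lfng averaged 19.9 ± 4.52 (SD, n = 3) in Toxf/fPdcd1Cre and 39.5 ± 7.29 (SD, n = 2) in Toxf/f libraries. The log2 fold change was -0.99 ± 0.199 (SE; 95% interval -1.42 to -0.55; adjusted p = 0.0306, edgeR). The call ended when the shared library of Toxf/f replicates 1 and 2 was left out (log2 fold change -1.16, adjusted p = 0.131, edgeR), without Toxf/f replicate 3 (-0.79, adjusted p = 0.464), without Toxf/fPdcd1Cre replicate 3 (-0.81, adjusted p = 0.0832) and with age as a covariate (-1.04, adjusted p = 0.0651). It held without Toxf/fPdcd1Cre replicate 1 (-1.09, adjusted p = 0.0367).

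The levels of the other Fringe genes overlapped between genotypes. Mfng was at 16.5, 16.2 and 17.96 FPKM in Toxf/fPdcd1Cre and 15.02 and 18.7 FPKM in Toxf/f libraries, a log2 fold change of 0.06 with a 95% interval of -0.27 to 0.39. Rfng was at 11.2, 11.4 and 10.8 FPKM in Toxf/fPdcd1Cre and 13.4 and 11.1 FPKM in Toxf/f libraries, a log2 fold change of -0.08 with an interval of -0.42 to 0.26. Lfng accordingly made up 25.8%, 26.2% and 17.6% of the summed FPKM of the Fringe genes in Toxf/fPdcd1Cre replicates 1, 2 and 3, against 34.7% and 40.2% in the Toxf/f libraries, which do not overlap (exact permutation p = 0.1, two-sided, the smallest this design allows). This share uses the same Lfng values as the call and is not separate evidence for it. Pofut1 and Poglut1, whose products place the first sugars on Notch, stood at log2 fold changes of 0.03 ± 0.137 and -0.12 ± 0.153.

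**Figure D4:**
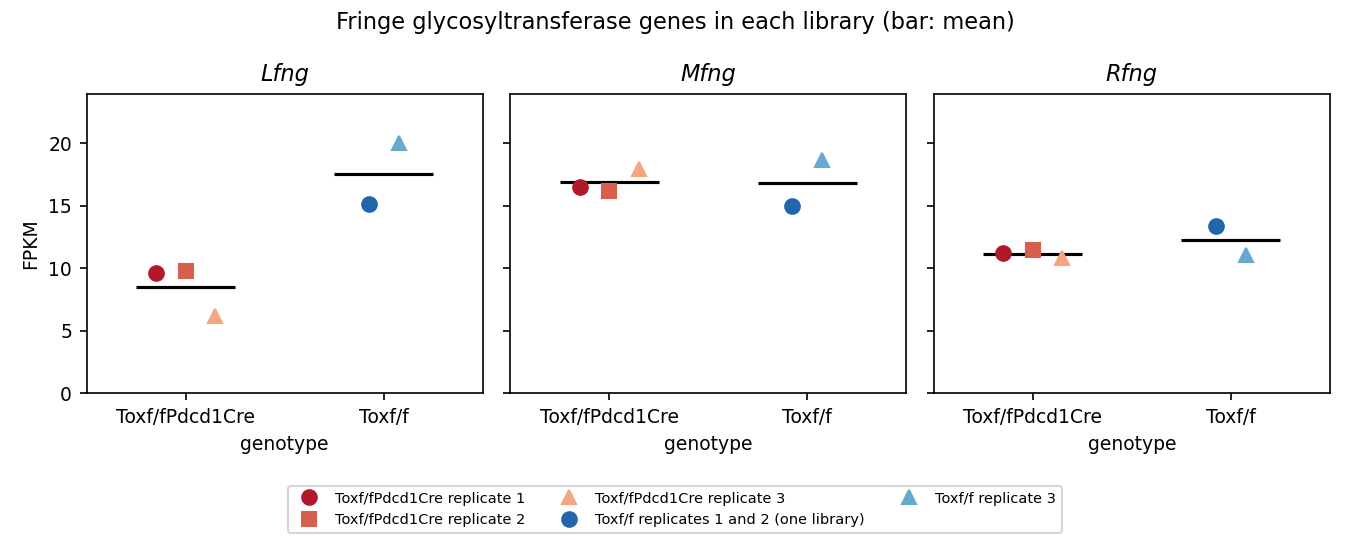
FPKM of Lfng, Mfng and Rfng, with 1 point per library and a bar at the mean of each genotype. Lfng is lower in all 3 Toxf/fPdcd1Cre libraries, while the values of Mfng and Rfng overlap between genotypes.

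Marker genes of several other cell types also differed between genotypes, some lower and some higher. In the list of mature single-positive T cells, 5 of 8 genes were lower and 0 higher, with summed levels of 389 to 419 CPM in Toxf/fPdcd1Cre and 558 to 658 CPM in Toxf/f libraries. In edgeR, 7 were lower and 0 higher at an unadjusted p under 0.05. Foxp3, among the genes called lower, had 6, 6 and 0 counts in Toxf/fPdcd1Cre replicates 1, 2 and 3. It had 115 and 162 counts in the Toxf/f libraries (log2 fold change -4.96, adjusted p = 0.00127, edgeR). Of 10 genes of dendritic cells and macrophages 3 were lower and 0 higher, with sums of 1310 to 1620 CPM in Toxf/fPdcd1Cre and 2450 to 2740 CPM in Toxf/f libraries, and of 7 B cell genes 1 was lower and 0 higher, with sums of 57.3 to 73.0 CPM in Toxf/fPdcd1Cre and 191 to 209 CPM in Toxf/f libraries. With an unadjusted p under 0.05 in edgeR, 7 dendritic cell and macrophage genes and 4 B cell genes were lower, and 0 higher. Over all tested genes the shares were 7.26% lower and 3.08% higher, and 1.51% and 0.135% at the adjusted threshold. Igkc, the B cell gene called, was at 6.83, 18.8 and 10.7 CPM in Toxf/fPdcd1Cre and 155 and 110 CPM in Toxf/f libraries. This immunoglobulin gene made up most of the B cell sum in each Toxf/f library. The log2 fold changes of 2 of the 7 B cell genes lay above 0. No gene of the dendritic cell and macrophage or B cell lists was at 0 in any library. Of 5 gamma-delta T cell genes found in the files (8 listed) 2 were higher (Trdc and Cd163l1) and 0 lower, with sums of 272 to 458 CPM in Toxf/fPdcd1Cre and 158 to 182 CPM in Toxf/f libraries. Trdc made up most of each sum, at 325, 221 and 232 CPM in Toxf/fPdcd1Cre and 160 and 126 CPM in Toxf/f libraries. The log2 fold changes of all 5 lay above 0, and 3 were higher at an unadjusted p under 0.05 in edgeR. Of 6 natural killer cell genes 1 was higher and 0 lower, while the log2 fold changes of 4 lay below 0. At an unadjusted p under 0.05 in edgeR, 2 were higher and 1 lower. The sums of 93.1 to 166 CPM in Toxf/fPdcd1Cre and 78.8 to 79.2 CPM in Toxf/f libraries were mostly Gzma. That gene averaged 91.6 CPM in Toxf/fPdcd1Cre and 52.5 CPM in Toxf/f libraries and was not called. Of 10 thymic epithelial genes 1 was lower (Krt14, log2 fold change -1.29) and 0 higher, while the log2 fold changes of 4 lay above 0 and the sums were 2470 to 2730 CPM in Toxf/fPdcd1Cre and 2200 to 2530 CPM in Toxf/f libraries. In edgeR, 2 of these genes were lower and 0 higher at an unadjusted p under 0.05. None of 8 double-positive or 7 endothelial and fibroblast genes was called in edgeR (0 and 1 at an unadjusted p under 0.05). The part of these cells in the value of Lfng was not tested.

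Rbpj, the nuclear partner of cleaved Notch (ENSMUSG00000039191, chromosome 5 from 53466152 to 53657362, plus strand), was at 22.8, 19.7 and 20.3 FPKM in Toxf/fPdcd1Cre and 22.7 and 22.2 FPKM in Toxf/f libraries. The values overlapped, and the 95% interval of the log2 fold change, -0.32 to 0.22, was the narrowest of the 10 genes. Among 15 coactivator and corepressor genes 0 were called in edgeR. Spen, a corepressor partner of RBPJ, had a log2 fold change of 0.63 ± 0.282 (adjusted p = 0.468), with 14.6, 21.4 and 19.6 FPKM in Toxf/fPdcd1Cre and 7.78 and 17.4 FPKM in Toxf/f libraries, where the low value is again that of replicates 1 and 2. L3mbtl3, another corepressor partner of RBPJ, stood at -0.26 ± 0.150. Of 14 genes of Notch turnover and trafficking 0 were called, and the smallest p was that of the ubiquitin ligase gene Dtx3l (log2 fold change -0.34 ± 0.126, adjusted p = 0.331). Neurl1a, another ubiquitin ligase gene, followed at -1.12 ± 0.584, with 6 to 19 counts per library.

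Of the direct target genes Hes1, Dtx1 and Nrarp, none passed the test. Hes1, a transcriptional repressor (ENSMUSG00000022528, chromosome 16 from 30064384 to 30067796, plus strand), was at 5.64, 2.86 and 3.05 FPKM in Toxf/fPdcd1Cre replicates 1, 2 and 3, against 3.14 and 4.67 FPKM in the Toxf/f libraries. It had only 68 to 118 counts per library, and its 95% interval of -0.71 to 0.76 was the widest of the 10. Dtx1, which encodes the ubiquitin ligase Deltex (ENSMUSG00000029603, chromosome 5 from 120680202 to 120711927, minus strand), was at 8.05, 5.22 and 8.34 FPKM in Toxf/fPdcd1Cre and 6.59 and 10.2 FPKM in Toxf/f libraries, with an interval of -0.65 to 0.32.

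Nrarp, whose small ankyrin-repeat product restrains Notch signalling (ENSMUSG00000078202, chromosome 2 from 25180758 to 25183339, plus strand), was at 5.98, 3.44 and 3.52 FPKM in Toxf/fPdcd1Cre and 5.50 and 6.54 FPKM in Toxf/f libraries. Toxf/fPdcd1Cre replicates 2 and 3 were lower than both Toxf/f libraries and replicate 1 lay between them. The log2 fold change of -0.43 ± 0.240 did not pass (adjusted p = 0.599, edgeR), and it was -0.74 without Toxf/fPdcd1Cre replicate 1. In Hes1 and Nrarp as in Myc, the highest value of the genotype was that of Toxf/fPdcd1Cre replicate 1, which stood apart in Ddx3y. Of 13 other tested target genes of T cell precursors 0 were called, and 0 had an unadjusted p under 0.05. Hey2, a relative of Hes1, stood at -0.89 ± 0.592 and Uaca at 0.29 ± 0.204.

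Ptcra, the invariant chain of the pre-TCR (ENSMUSG00000036858, chromosome 17 from 46755663 to 46763712, minus strand), was at 35.6, 27.6 and 33.8 FPKM in Toxf/fPdcd1Cre replicates 1, 2 and 3, against 27.5 and 22.8 FPKM in the Toxf/f libraries. The genotypes did not overlap, but Toxf/fPdcd1Cre replicate 2 and the Toxf/f library of replicates 1 and 2 were nearly equal. The log2 fold change was 0.42 ± 0.158 (SE; 95% interval 0.07 to 0.76), and it did not pass (adjusted p = 0.342, edgeR). Over the 17 alternatives to the processing it ranged from 0.27 to 0.58 and was never called. Its partner, the beta chain, was measured through the constant genes Trbc1, at 1500 ± 75.6 FPKM in Toxf/fPdcd1Cre and 1520 ± 43.7 FPKM in Toxf/f libraries, and Trbc2, at 2420 ± 222 and 2710 ± 317 FPKM. These are near-identical copies whose reads counting may split. Cd3g, a signalling chain of the complex, averaged 628 FPKM in Toxf/fPdcd1Cre and 608 FPKM in Toxf/f libraries. The sum of Trbc1 and Trbc2 was 107, 154 and 110 times the FPKM of Ptcra in Toxf/fPdcd1Cre replicates 1, 2 and 3, and 163 and 175 times in the Toxf/f libraries (exact permutation p = 0.2, two-sided).

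Of 19 tested genes of the complex and its proximal signalling 0 passed in edgeR, and 1 was lower at an unadjusted p under 0.05: the kinase gene Fyn, at 49.0, 54.5 and 51.6 FPKM in Toxf/fPdcd1Cre and 67.7 and 72.7 FPKM in Toxf/f libraries (log2 fold change -0.34 ± 0.128, adjusted p = 0.351). Zap70, the kinase that binds CD3 chains, stood at 0.23 ± 0.136. Of 18 genes that respond to beta-selection 1 was lower and 0 higher (3 lower and 1 higher at an unadjusted p under 0.05). The gene called was Ccnd2, which encodes the cell cycle protein cyclin D2, at 22.6, 10.4 and 11.7 FPKM in Toxf/fPdcd1Cre replicates 1, 2 and 3 and 26.6 and 39.9 FPKM in the Toxf/f libraries (log2 fold change -1.20 ± 0.246, adjusted p = 0.0331, edgeR). This call held in 7 of 17 alternatives and ended with DESeq2 (log2 fold change -1.21, adjusted p = 0.158).

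Myc, a growth-promoting transcription factor induced by Notch and pre-TCR signals (ENSMUSG00000022346, chromosome 15 from 61985391 to 61990374, plus strand), was at 48.0, 25.9 and 38.6 FPKM in Toxf/fPdcd1Cre replicates 1, 2 and 3, against 33.1 and 37.1 FPKM in the Toxf/f libraries. The Toxf/fPdcd1Cre libraries lay on both sides of the Toxf/f values. Its log2 fold change was 0.18 with a 95% interval of -0.26 to 0.62, and -0.066 without Toxf/fPdcd1Cre replicate 1. Of 19 tested partners and targets of Myc 1 was lower and 0 higher in edgeR, with 2 higher at an unadjusted p under 0.05. The gene called was Mxd1, which encodes an antagonist that competes with Myc for their shared partner Max. It was at 11.6, 11.99 and 9.96 FPKM in Toxf/fPdcd1Cre and 17.8 and 19.2 FPKM in Toxf/f libraries (log2 fold change -0.66 ± 0.133, adjusted p = 0.0306).

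Cd27, a co-stimulatory receptor that appears on thymocytes around beta-selection (ENSMUSG00000030336, chromosome 6 from 125232622 to 125237010, minus strand), was at 154, 189 and 163 FPKM in Toxf/fPdcd1Cre replicates 1, 2 and 3, against 170 and 168 FPKM in the Toxf/f libraries. The Toxf/f values lay within the Toxf/fPdcd1Cre range, with a log2 fold change of 0.05 and a 95% interval of -0.27 to 0.37. It overlaps Vamp1 on the opposite strand, and as the use of strand in counting is not given, reads of the 2 genes may not be told apart. None of the other 9 genes overlaps a listed gene. Cd70, the ligand of CD27, averaged 0.205 CPM in Toxf/fPdcd1Cre and 1.37 CPM in Toxf/f libraries, with 0 counts in Toxf/fPdcd1Cre replicate 2, and did not pass (adjusted p = 0.230, edgeR). Siva1, which binds the tail of CD27, stood at 0.31 ± 0.166.

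Among 15 genes of the DN stages 2 were lower and 0 higher in edgeR (3 lower at an unadjusted p under 0.05, and 0 higher). Cd44, an adhesion receptor of the earliest stages, was at 10.6, 7.29 and 8.31 FPKM in Toxf/fPdcd1Cre and 13.8 and 14.8 FPKM in Toxf/f libraries (log2 fold change -0.67 ± 0.145, adjusted p = 0.0437). Il7r, the interleukin 7 receptor, was at 10.6, 6.78 and 8.18 FPKM in Toxf/fPdcd1Cre and 13.97 and 15.6 FPKM in Toxf/f libraries (-0.75 ± 0.166, adjusted p = 0.0496). Both are also expressed outside the DN stages. Il7r is itself 1 of the 5 lower genes of the mature single-positive list given above, which does not hold Cd44. The part of other cells in these values was not tested. Il2ra, a Notch target that marks the stages around commitment, had a log2 fold change of 0.13 (adjusted p = 0.903).

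Over all 12 pathway lists, 135 of 138 further genes were tested, of which 4 were lower (Ccnd2, Mxd1, Cd44 and Il7r) and 0 higher, or 2.96%, beside 1.64% of all tested genes. An unadjusted p under 0.05 was found for 10 lower and 4 higher genes. The median log2 fold change of the lists' genes was 0.0059, beside 0.025 of all tested genes. Each of the 4 calls ended without either Toxf/f library in turn (adjusted p = 0.131 to 0.540, edgeR) and without Toxf/fPdcd1Cre replicate 3 (adjusted p = 0.115 to 0.175), and those of Cd44 and Il7r also without replicate 2 (adjusted p = 0.102 and 0.0934); all 4 held without replicate 1. In these fits without 1 library the log2 fold changes kept their sign, at -1.59 to -0.90 for Ccnd2, -0.73 to -0.60 for Mxd1, -0.81 to -0.59 for Cd44 and -0.93 to -0.62 for Il7r. Without replicate 1, 8 of the lists' genes were called.

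**Figure D5:**
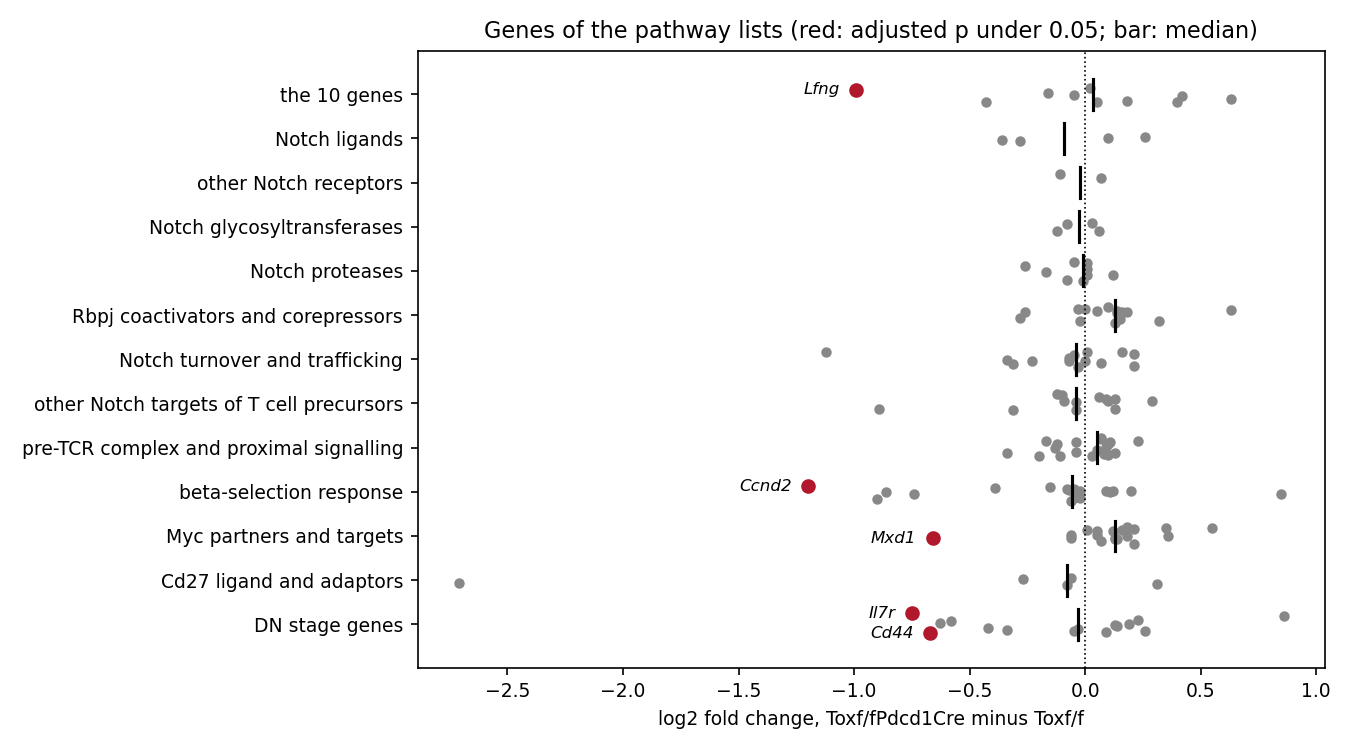
Log2 fold changes, Toxf/fPdcd1Cre minus Toxf/f, of the tested genes of each pathway list, with a bar at the list's median and genes with an adjusted p under 0.05 in red. The called genes are Lfng, at -0.99, Ccnd2, at -1.20, Mxd1, at -0.66, Il7r, at -0.75, and Cd44, at -0.67; the medians lie close to 0.

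The genes whose pattern over the 5 libraries was most like that of Ptcra, by the mean absolute difference of centred log2 CPM among 9201 genes, were Cenpm, Eri2 and Lsm5 (0.0250, 0.0282 and 0.0331). For Notch1 they were Tppp, Ankrd52 and Dsp (0.0445, 0.0550 and 0.0574). Whether distances this small are unusual, with 5 values per gene and 9201 genes compared, was not tested, nor was any shared regulation. Ankrd52 averaged 146 ± 2.58 CPM in Toxf/fPdcd1Cre and 111 ± 39.1 CPM in Toxf/f libraries, with its low value, as for Notch1, in the Toxf/f library of replicates 1 and 2.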

How the data were processed

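Per the labels' protocols, libraries were made from Trizol-extracted total RNA of sorted thymocytes (NEBNext Ultra RNA kit); the protocols name the DN2 stage where the titles name DN cells. The authors deposited per sample a table with a count and an FPKM per gene, per the file headers. HISAT2, fastp 0.18.0 and StringTie 1.3.1 are named, without roles, in the submitters' processing notes. How reads were counted, with which build, annotation and strand setting, is not given in the sources used here. Estimated counts are what the authors deposited: in each library 8.81% to 9.84% of all listed genes, those at 0 included, had a count that was not whole within 1e-06, and counts were rounded.

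The identical files entered as 1 library, so tests had 3 against 2 libraries. Genes were filtered with filterByExpr, scaled with TMM factors and tested by the quasi-likelihood method of edgeR 4.0.16 in R 4.3.3 (threshold 0.05). The test was also run on simulated counts of independent libraries, with the spread that the same fit estimated. Such a run cannot show whether that spread holds for these libraries. Confidence intervals are 95% and use the test's own error. FPKM were printed as deposited by the authors, and their means and ratios computed; ratios were tested by exact permutation of log2 values. No set test was run. The 17 alternatives were other scalings, filters, tools (DESeq2 1.42.0, limma 3.58.1), pseudocounts, covariates and left-out libraries. The 10 genes, the gene lists and the tests were chosen with earlier results of these data known. Named besides the 10 genes and Tox were, from each pathway list (not the cell marker lists), genes past the threshold or up to 2 with the smallest p, the highest by FPKM in some lists, and the 3 nearest patterns of Ptcra and Notch1 among genes of at least 10 CPM. Ddx3y, Pdcd1, Il2ra, Mfng, Pofut1, Dll3, Foxp3, Trdc, Cd163l1, Krt14, Igkc, Gzma and the coreceptor, stage and epithelial genes ranked by level fall outside that rule and were named after their values were seen. Coordinates come from GENCODE M21 (GRCm38), matched by Ensembl identifier, and promoter windows from RefSeq (GRCm38.p6), which may not be the build behind the files. One gene that the naming rule selects is not reported here.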

Additional observations from a re-analysis of the deposited data

How the results depend on the processing

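Tox kept its direction and its call under all 17 alternatives. The count of changed genes over the transcriptome, 232, was 417 with no filter, 124 with at least 10 CPM in 2 or more libraries, 359 with DESeq2, 126 with limma on log2(FPKM + 0.1), 125 with age as a covariate, 380 with all 6 files counted separately, and 31 to 606 when 1 library was left out (49 and 31 without the shared Toxf/f library and Toxf/f replicate 3, 606 and 114 without Toxf/fPdcd1Cre replicates 1 and 3). Of the 10 genes, 1 was called, and 0 with upper-quartile factors, with the 10 CPM filter, with limma on log2(FPKM + 1) or log2(FPKM + 0.1) and with age as a covariate (2 to 4 at an unadjusted p under 0.05); it was 0 to 1 when 1 library was left out. Of the pathway lists' genes 4 were called, and 1 with upper-quartile factors, 1 with the 10 CPM filter, 0 with either FPKM fit and 0 with age (12 to 13 at an unadjusted p under 0.05), and 0 to 8 when 1 library was left out (8 to 11 at an unadjusted p under 0.05 where 0 were called). Lfng kept its direction under all 17, from -1.16 to -0.79, and its call in 9. The cause of these shifts was not tested.

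The replicate numbers were not taken as pairs: deviations from the genotype means correlated at -0.20 and 0.11 between the shared Toxf/f library and Toxf/fPdcd1Cre replicates 1 and 2, and at -0.16 between the replicates numbered 3. With a replicate block the changed genes numbered 435 (shared library as replicate 1) or 868 (as replicate 2), those of the 10 were 2 (Lfng and Notch3, adjusted p = 0.0291, edgeR) or 1, and those of the pathway lists 8 or 10.

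Sign changes occurred in genes near 0 that were never called. Hes1, at 0.02, was -0.00012 with upper-quartile factors, -0.017 with limma-voom, -0.044 and -0.061 on log2(FPKM + 1) and log2(FPKM + 0.1), -0.29 with the second block and -0.35 to 0.32 with 1 library left out. Dtx1 was 0.043 with the first block and -0.43 to 0.17 with 1 library left out. Myc was -0.048 with the second block and -0.066 to 0.37 with 1 library left out. Cd27 was -0.0075 and -0.0076 in the FPKM fits, -0.055 with the first block and -0.054 to 0.097 with 1 library left out. At this depth Cd70 had 8, 0 and 1 counts in Toxf/fPdcd1Cre and 22 in each Toxf/f library, and Hes1 68 to 118 counts in all libraries; what sets the spread of Hes1 was not tested.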
